A study of Mus musculus with 6 samples.

Results

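The 8 genes described here encode iron oxidases (*Heph*, *Cp*), the receptor for iron uptake (*Tfrc*), ferritin subunits (*Fth1*, *Ftl1*), a heme-degrading enzyme (*Hmox1*) and iron sensors (*Ireb2*, *Aco1*). They were found by symbol among the 41128 genes of the deposited table, and all 8 had 1 row each. *Heph* was chosen by its reads, which were present only in the *Hoxa9*/*IRX3* cohort, so its values are a description with no test. The other 7 members were selected on their role in iron handling, with results of these data already known.

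RNA was sequenced from donor-derived (CD45.1+) KIT+Gr1+ acute myeloid leukemia (AML) cells. These were flow sorted from the bone marrow (BM) of 6 C57BL/6 mice, with 1 polyA library per mouse. Leukemias of both cohorts arose from KIT+ BM cells of CD45.1+ mice transduced with retroviral *Hoxa9* and transplanted into irradiated CD45.2+ congenic recipients. *Hoxa9*/MTV cells (mice 1.1, 1.2 and 1.4) carried the empty vector MTV beside *Hoxa9*, and *Hoxa9*/*IRX3* cells (mice 3.2, 3.3 and 3.5) carried *IRX3*, a homeobox gene. Donors and recipients were 6 to 12 weeks old at transplantation, and the leukemias were sampled later, when the recipients had become sick. The paper reports a later onset of AML in *Hoxa9*/*IRX3* than in *Hoxa9*/MTV recipients. Age and time since transplantation therefore cannot be told apart from the cohort, and those of the sequenced mice are not given. Both introduced genes were expressed from retroviral vectors and not from their own promoters, and numbers of mice name animals and pair nothing across cohorts. Recipients keep cells of their own, which a sort for CD45.1 is meant to leave out.

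Iron enters most cells bound to transferrin through the transferrin receptor, is stored within ferritin shells built from heavy and light chains, and leaves through ferroportin, the product of *Slc40a1*. Exported iron is oxidized by hephaestin, a membrane-bound copper enzyme known best from the gut, or by its circulating relative ceruloplasmin, and is then loaded on transferrin. When iron is scarce, the iron regulatory proteins IRP1 (*Aco1*) and IRP2 (*Ireb2*) bind hairpins called iron-responsive elements (IREs), which blocks translation of ferritin and ferroportin and protects *Tfrc* mRNA from decay. In macrophages of marrow and spleen, *Hmox1* and *Slc40a1* serve the recycling of iron from old red cells.

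The IREs are shown because they set apart the mRNAs that iron regulatory proteins are known to bind, a step of control that acts after transcription. UTRs of GENCODE M21 (GRCm38) were searched on the transcribed strand for an unpaired C, a stem arm of 5 bases, the loop CAGTGN and the opposite arm of 5 bases, allowing G with T pairs. Such a match was present in the 5′ UTR of 0.15% of 20597 genes and in the 3′ UTR of 0.61% of 20995 genes. Capitals mark the unpaired C and the loop, and each sequence runs 5′ to 3′. The ferritin genes held 1 each in the 5′ UTR, at chr19:9982732-9982760 on the plus strand for *Fth1* and at chr7:45459779-45459807 on the minus strand for *Ftl1*.
Fth1: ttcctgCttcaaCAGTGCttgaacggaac
Ftl1: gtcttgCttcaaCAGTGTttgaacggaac
*Slc40a1*, which is not a member but had the largest difference of the tested pathway genes, held 1 in its 5′ UTR (chr1:45925465-45925493, minus strand).
Slc40a1: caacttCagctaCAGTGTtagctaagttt
*Tfrc* held 4 in its 3′ UTR, all on the plus strand, at chr16:32631219-32631247, chr16:32631598-32631626, chr16:32631663-32631691 and chr16:32631710-32631738, given here in that order.
Tfrc site a: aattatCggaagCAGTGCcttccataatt
Tfrc site b: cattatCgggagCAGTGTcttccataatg
Tfrc site c: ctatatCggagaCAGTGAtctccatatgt
Tfrc site d: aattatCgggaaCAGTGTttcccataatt
No match lay in the annotated UTRs of *Heph*, *Cp*, *Hmox1*, *Ireb2* or *Aco1*, which says only that these letters were not found there.

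Values are RPKM, a read number divided by gene length in kilobases and by library size, which are normalised values and not counts. The length the authors divided by takes in the introns, so a gene with long introns has a low RPKM. For levels of different genes, RPKM was therefore multiplied by the span and divided by the summed exon length of GENCODE M21, and is called exon RPKM. It places every read of a gene on its exons, so any reads counted in introns raise it, most for genes with long introns. The mapped reads by which each library was divided were recovered from the steps between low values and ran from 7979246 to 9803621. Differences between cohorts are on log2(RPKM + 0.5), which understates changes of weakly expressed genes, and were tested with limma over 9522 protein-coding genes with more than 0.5 RPKM in at least 1 mouse, with Benjamini-Hochberg adjustment. A gene was called at an adjusted p under 0.05 and 2-fold or more on that scale. Across all tested genes 3.13% were called, 1.1% higher and 2.03% lower in *Hoxa9*/*IRX3* cells, and the cohorts did not overlap for 33.7%. The 3 mice of each cohort are separate animals, and an exact permutation test of 3 against 3 cannot go below p = 0.1. In bulk samples fewer cells of a type and less RNA per cell cannot be told apart.

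The introduced *IRX3*, a cDNA named with the human symbol, has no row of its own, since reads were aligned to the mouse genome. The mouse gene was therefore looked at first. Mouse *Irx3* was listed at 0 in mice 1.1, 1.2 and 1.4 and at 15.1, 0.421 and 0.148 RPKM in mice 3.2, 3.3 and 3.5, values that hold only what aligned to the mouse gene. Mouse 3.2 thus stood far above mice 3.3 and 3.5 for the mouse gene, which does not give the level of the introduced gene. Markers of the sort were read in all mice, with *Kit* at 2.49 to 3.12 RPKM in *Hoxa9*/MTV and 1.63 to 2.70 RPKM in *Hoxa9*/*IRX3* cells. *Ly6g*, which encodes a Gr1 antigen, was read from 2 to 5 reads in *Hoxa9*/MTV mice and from 26 to 49 reads in *Hoxa9*/*IRX3* mice, and it passed the filter on low values only through the latter. *Elane*, the neutrophil elastase gene of early granulocytes, was called higher (1.91, adjusted p = 0.0144 by limma), whereas *Mpo* (0.70, adjusted p = 0.115) and *Ly6c2* (0.56, adjusted p = 0.278) were not called. Of 8 tested markers of the sorted cells, 2 were called higher, *Elane* and *Ly6g*, and none lower, beside 1.1% and 2.03% of all tested genes.

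Among the members, the oxidases had the lowest levels in *Hoxa9*/MTV leukemias. *Heph* was chosen for its reads in *Hoxa9*/*IRX3* mice alone, and *Cp* was higher in each of these mice without being called. The transferrin receptor and IRP2 showed no difference beyond the spread between mice. None of the 7 members tested was called, against 3.13% of all tested genes, and 2 of them, *Cp* and *Hmox1*, had an unadjusted p under 0.05. Cohorts did not overlap for 3 of the 7, with *Cp* higher and *Hmox1* and *Aco1* lower, against 33.7% of all tested genes. The median log2 difference of the 7 was -0.17, beside -0.06 over all tested genes. All 8 members passed the filter on low values, but *Heph* and *Cp* passed it only through *Hoxa9*/*IRX3* mice.

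**Figure D1:**
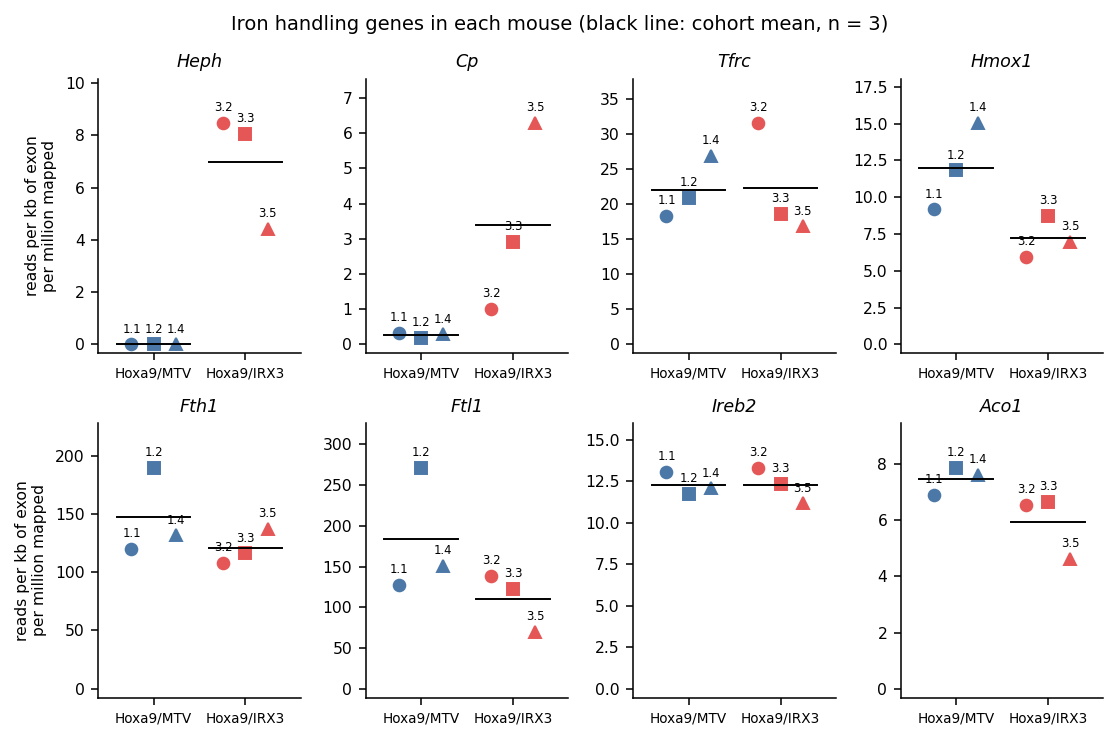
Exon RPKM (reads by exon length and library size, linear axis from 0) of the 8 members in each mouse, with *Hoxa9*/MTV mice in blue, *Hoxa9*/*IRX3* mice in red and black lines at the cohort means (n = 3). *Heph* lies at 0 in the 3 *Hoxa9*/MTV mice and between 4.42 and 8.47 in the others, and the points of *Tfrc*, *Fth1*, *Ftl1* and *Ireb2* overlap between cohorts.

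*Heph* (ENSMUSG00000031209) spans chrX:96455359-96574485 on the plus strand of GRCm38, and exons make up 6.43% of that span. It had no read in mice 1.1, 1.2 and 1.4 and 575, 605 and 270 reads in mice 3.2, 3.3 and 3.5. These are 0.545, 0.518 and 0.284 RPKM, or 8.47, 8.05 and 4.42 exon RPKM, with a mean of 6.98 ± 2.23 exon RPKM (SD, n = 3). The cohorts did not overlap, and mouse 3.5 had the lowest level of the 3 mice with reads. A limit of 3 reads in a library without any, which covers counting error only, corresponds to 0.0405 to 0.0471 exon RPKM. Set against that limit in each *Hoxa9*/MTV mouse, the mean was at least 159-fold higher in *Hoxa9*/*IRX3* cells, and at least 142-fold, 147-fold and 188-fold without mouse 3.2, 3.3 and 3.5 respectively. The difference was 0.91 (SE 0.17) on log2(RPKM + 0.5) and 3.85 (SE 0.29) on log2(exon RPKM + 0.5), so the scale sets its size. The threshold of 0.5 RPKM falls inside the *Hoxa9*/*IRX3* values of *Heph*, with mice 3.2 and 3.3 just above it and mouse 3.5 below.

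By exon RPKM the level of *Heph* in the *Hoxa9*/*IRX3* cohort was moderate, or lower if reads in its introns were counted. Its mean exon RPKM was above that of 46.8% of the 11856 genes that passed the filter per exon length, between *Hmox1* at 7.23 and *Aco1* at 5.94, and the ranges of these 3 genes overlapped. The same absence in all *Hoxa9*/MTV mice was found for 69 tested genes (0.725%), of which 19 (0.200%) were read in all 3 *Hoxa9*/*IRX3* mice. With the filter applied per exon length, 68 genes showed this pattern. The reverse, reads in all *Hoxa9*/MTV mice and none in any *Hoxa9*/*IRX3* mouse, was found for 8 tested genes.

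The genes around *Heph* on the X chromosome were looked at after their values were seen. *Hsf3* lies head to head with *Heph* on the minus strand and overlaps it by 0.935 kb. It had 1, 0 and 0 reads in mice 1.1, 1.2 and 1.4 and 15, 16 and 6 reads in mice 3.2, 3.3 and 3.5, the same order as *Heph*. Whether the counting used strand is not given in the sources used here, so reads in the shared stretch cannot be told apart. Beyond it, *Vsig4*, *Gpr165*, *Pgr15l* and *Eda2r* were at 0 in every *Hoxa9*/MTV mouse and at 0 or no more than 0.170 exon RPKM in *Hoxa9*/*IRX3* mice. *Msn*, 287 kb before *Heph*, encodes the cytoskeletal linker moesin and was strongly expressed in both cohorts, at 133 to 154 exon RPKM versus 88.8 to 119 exon RPKM (log2 difference -0.41, adjusted p = 0.166 by limma). Reads of *Heph* in *Hoxa9*/*IRX3* cells were thus not shared by the genes next to it, apart from *Hsf3*.

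*Clec3a*, *Clu*, *Arhgef38*, *Ces1d* and *Svep1* had patterns most like that of *Heph* among tested genes without a read in *Hoxa9*/MTV mice. Pearson's r with *Heph* on log2(RPKM + 0.5) over the 6 mice was 0.998, 0.976, 0.974, 0.958 and 0.894 in that order, a description that rests largely on the shared step between cohorts. *Arhgef38* and *Ces1d*, which encode a guanine nucleotide exchange factor and a carboxylesterase, ranked the 3 mice as *Heph* did, with 10.2, 8.28 and 2.49 and 12.01, 7.45 and 2.38 exon RPKM in mice 3.2, 3.3 and 3.5. *Clec3a*, a C-type lectin gene, was at 34.6, 39.2 and 16.3 exon RPKM and *Clu*, the gene of the chaperone clusterin, at 15.7, 17.9 and 12.9 exon RPKM in these mice. *Svep1*, an extracellular matrix gene, was highest in mouse 3.3. In all 5, as in *Heph*, mouse 3.5 had the lowest level of its cohort. The choice of genes by correlation with *Heph* favours this shared order, so it is no separate observation.

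**Figure D2:**
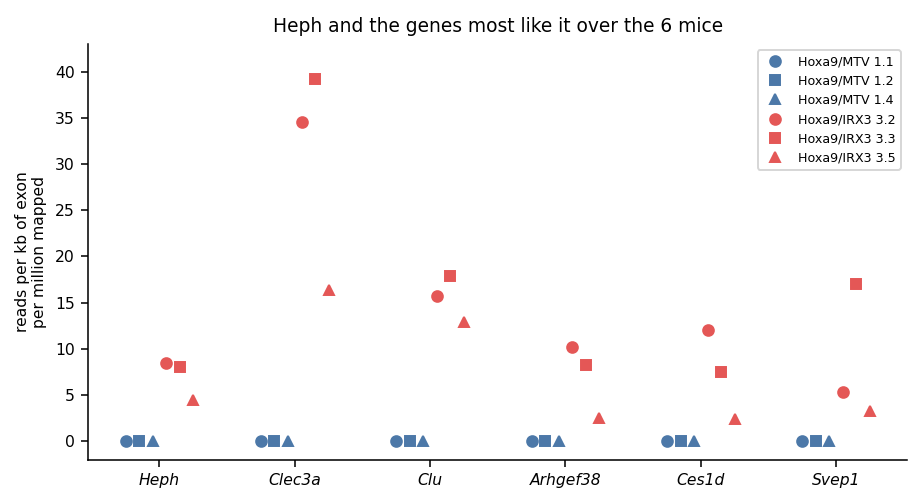
Exon RPKM (linear axis) of *Heph* and the 5 genes most like it, with 1 point per mouse, *Hoxa9*/MTV in blue and *Hoxa9*/*IRX3* in red. All *Hoxa9*/MTV points lie at 0, and mouse 3.5 (red triangle) is the lowest *Hoxa9*/*IRX3* mouse for each gene, from 2.38 for *Ces1d* to 16.3 for *Clec3a*. Both features follow from how the genes were chosen.

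*Cp* (ENSMUSG00000003617, chr3:19957054-20009145, plus strand) encodes ceruloplasmin. It was at 0.0586, 0.0347 and 0.0516 RPKM in mice 1.1, 1.2 and 1.4, from 27, 15 and 26 reads. In mice 3.2, 3.3 and 3.5 it was at 0.184, 0.535 and 1.16 RPKM, from 85, 273 and 480 reads. The cohorts did not overlap, but within *Hoxa9*/*IRX3* mouse 3.5 stood far above mouse 3.2, which was nearest to the *Hoxa9*/MTV mice. The ratio of mean RPKM was 12.9, and 7.44 without mouse 3.5. The log2 difference of 0.94 (SE 0.32) did not pass adjustment (adjusted p = 0.135 by limma, two-sided exact permutation p = 0.1, higher in 3 of 3 mice). It was called only with mouse 3.2 left out, at 1.26 (adjusted p = 0.0354 by limma), and the adjusted p reached 0.325 with another mouse left out. *Cp* passed the filter of 0.5 RPKM only through mice 3.3 and 3.5, in the cohort where it was higher, so these p-values are no independent support. Per exon length the difference was 2.10 (SE 0.53, adjusted p = 0.0663 by limma), where 4.66% of 11856 tested genes were called.

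*Hps3*, on the minus strand, shares 13.2 kb with the end of *Cp* and had 2.42 to 2.65 RPKM in *Hoxa9*/MTV and 0.975 to 1.92 RPKM in *Hoxa9*/*IRX3* cells. It was lower in the cohort where *Cp* was higher, but within *Hoxa9*/*IRX3* both genes were lowest in mouse 3.2. The part of shared reads in the *Cp* values was not tested. Within the *Hoxa9*/*IRX3* cohort the oxidases ran in opposite order, *Heph* highest in mouse 3.2 and *Cp* highest in mouse 3.5. The ratio of *Heph* to *Cp* per exon length was 8.45, 2.77 and 0.702 in mice 3.2, 3.3 and 3.5, so that of this pair *Heph* had the higher level in mice 3.2 and 3.3 and *Cp* in mouse 3.5. With 3 mice this order is a description.

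*Tfrc* (ENSMUSG00000022797, chr16:32608920-32632794, plus strand) takes up transferrin-bound iron and is a marker of dividing and iron-hungry cells. It was at 4.76, 5.41 and 6.96 RPKM in mice 1.1, 1.2 and 1.4 and at 8.19, 4.84 and 4.36 RPKM in mice 3.2, 3.3 and 3.5. Mouse 3.2 was the highest and mouse 3.5 the lowest of all 6, so the cohorts overlapped. The log2 difference was -0.01 (SE 0.25, adjusted p = 0.981 by limma), and its sign changed with the scaling and with single mice, from -0.27 without mouse 3.2 to 0.15 without mouse 3.5.

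*Fth1* and *Ftl1* encode the heavy chain of ferritin, which oxidizes iron on entry, and the light chain, which helps to store it. They were the most abundant members in both cohorts, above 97.8% or more of genes per exon length. *Fth1* (ENSMUSG00000024661, chr19:9980598-9985098, plus strand) was at 92.5, 146 and 102 RPKM in mice 1.1, 1.2 and 1.4 and at 83.5, 89.5 and 106 RPKM in mice 3.2, 3.3 and 3.5. Mouse 1.2 was the highest, and the other 5 lay close together across cohorts (log2 difference -0.26, SE 0.21, adjusted p = 0.477 by limma). *Ftl1* (ENSMUSG00000050708, chr7:45457944-45459884, minus strand) was at 88.2, 188 and 104 RPKM in mice 1.1, 1.2 and 1.4. In mice 3.2, 3.3 and 3.5 it was at 95.7, 84.6 and 48.0 RPKM, which overlapped with the *Hoxa9*/MTV values. The log2 difference of *Ftl1* was -0.71 (SE 0.37, adjusted p = 0.285 by limma), and -0.39 at the smallest when 1 mouse was left out. Ferritin genes have near-identical pseudogenes, and alignments of low mapping quality had been removed, so their levels are uncertain.

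Per exon length, *Fth1* and *Ftl1* RNA had similar levels in most mice. That similarity rests on the summed exon lengths used, 3469 bases for *Fth1* and 1340 bases for *Ftl1*, and says nothing of the protein chains. The ratio of *Fth1* to *Ftl1* per exon length was 0.939, 0.699 and 0.873 in mice 1.1, 1.2 and 1.4 and 0.782, 0.949 and 1.97 in mice 3.2, 3.3 and 3.5. Mouse 3.5 stood apart through its low *Ftl1*, and the cohorts did not differ beyond the spread between mice (two-sided exact permutation p = 0.4, where 0.1 is the smallest possible).

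*Hmox1* (ENSMUSG00000005413, chr8:75093621-75100589, plus strand) encodes heme oxygenase 1, which opens the heme ring and frees its iron. It was at 2.31, 2.97 and 3.78 RPKM in mice 1.1, 1.2 and 1.4 and at 1.498, 2.198 and 1.753 RPKM in mice 3.2, 3.3 and 3.5. All *Hoxa9*/*IRX3* values lay below all *Hoxa9*/MTV values, with mouse 3.3 just under mouse 1.1. The mean was 1.66-fold higher in *Hoxa9*/MTV cells, and the log2 difference of -0.59 (SE 0.19) did not pass adjustment (p = 0.0186 before and 0.124 after adjustment by limma, exact permutation p = 0.1, lower in 3 of 3 mice).

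Of the sensors, *Ireb2* was the steadiest member, whereas *Aco1* was lower in each *Hoxa9*/*IRX3* mouse. *Ireb2* (ENSMUSG00000032293, chr9:54863789-54912530, plus strand), the gene of IRP2, was at 2.55, 2.28 and 2.35 RPKM in mice 1.1, 1.2 and 1.4 and at 2.59, 2.40 and 2.17 RPKM in mice 3.2, 3.3 and 3.5. The range over all 6 mice was narrow and the log2 difference was -0.0027 (SE 0.11, adjusted p = 0.991 by limma), of either sign under other scalings. *Aco1* (ENSMUSG00000028405, chr4:40143081-40198338, plus strand) encodes IRP1, which is the cytosolic aconitase when it holds an iron-sulfur cluster. It was at 0.561, 0.641 and 0.619 RPKM in mice 1.1, 1.2 and 1.4 and at 0.533, 0.541 and 0.376 RPKM in mice 3.2, 3.3 and 3.5. The *Hoxa9*/*IRX3* values lay below the others by a small margin except in mouse 3.5 (log2 difference -0.17, SE 0.13, adjusted p = 0.442 by limma, exact permutation p = 0.1). Per exon length the difference of *Aco1* was -0.32 (SE 0.19, adjusted p = 0.335 by limma).

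By mean exon RPKM the order in *Hoxa9*/MTV cells was *Ftl1* (183), *Fth1* (147), *Tfrc* (22.0), *Ireb2* (12.3), *Hmox1* (12.02), *Aco1* (7.46), *Cp* (0.263) and *Heph* (0). Ranges of neighbours overlapped there for *Ftl1* with *Fth1* and for *Ireb2* with *Hmox1*. In *Hoxa9*/*IRX3* cells the order was *Fth1* (121), *Ftl1* (110), *Tfrc* (22.4), *Ireb2* (12.3), *Hmox1* (7.23), *Heph* (6.98), *Aco1* (5.94) and *Cp* (3.40). Here the ferritin chains overlapped with each other, and each of the last 4 overlapped with the next in order. *Cp* moved from above 6.28% of genes to above 28.3%.

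The rest of the pathway was read from 97 further genes in 8 lists, of which 72 were tested and 7 were listed at 0 in all mice. Of the 72, 3 were called higher (*Slc40a1*, *Trf* and *Srxn1*) and 2 lower (*Ppox* and *Slc31a2*), beside 1.1% and 2.03% of all tested genes. A further 67 were not called. Cohorts did not overlap for 14 genes higher and 18 lower in *Hoxa9*/*IRX3* cells, beside 33.7% of all tested genes in either direction. The median log2 difference was -0.04.

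**Figure D3:**
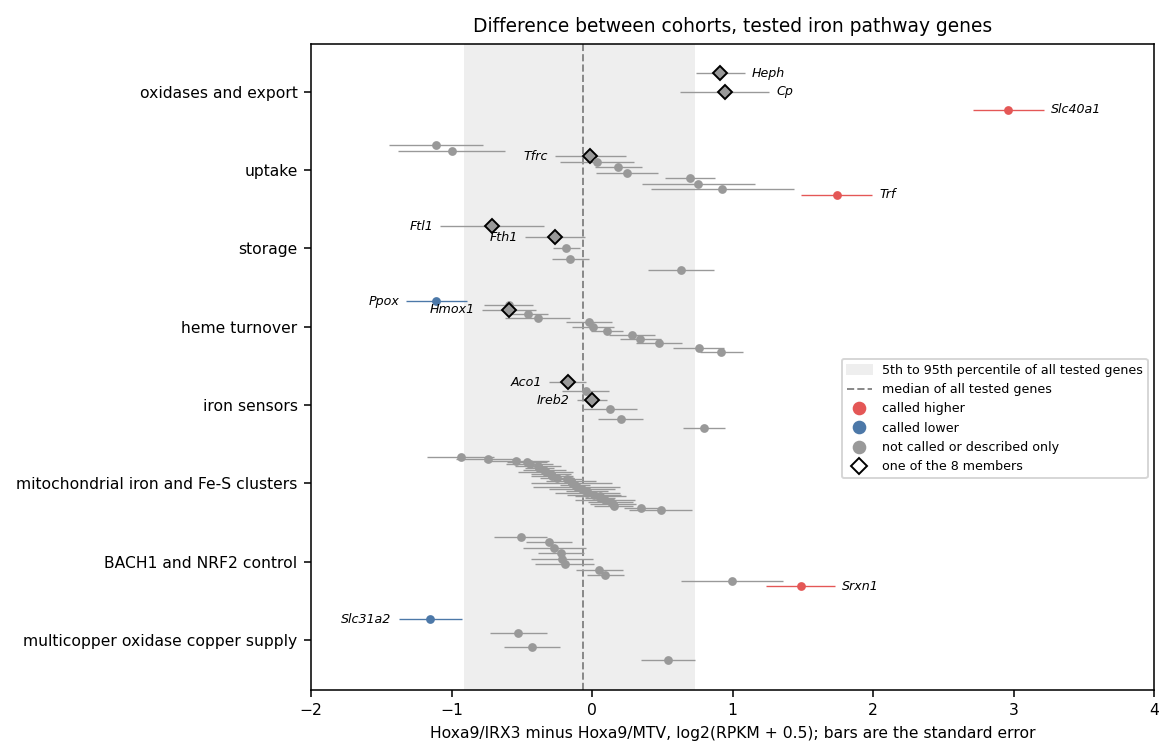
Difference between cohorts on log2(RPKM + 0.5), *Hoxa9*/*IRX3* minus *Hoxa9*/MTV, with the standard error as a bar, for each tested gene of the 8 iron pathway lists. Diamonds are members, colors mark genes called by limma, the grey band holds the 5th to 95th percentile of all 9522 tested genes (-0.90 to 0.72), and *Slc40a1* lies farthest out at 2.96.

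*Slc40a1* (ENSMUSG00000025993, chr1:45908068-45926523, minus strand), the only other tested gene of the oxidase and export list, encodes ferroportin, the known cellular iron exporter. It was at 0.6801, 0.378 and 0.622 RPKM in mice 1.1, 1.2 and 1.4 and at 7.998, 5.32 and 10.6 RPKM in mice 3.2, 3.3 and 3.5. Even the lowest *Hoxa9*/*IRX3* mouse lay far above the highest *Hoxa9*/MTV mouse. The ratio of means was 14.2, from 11.9 to 16.6 when 1 mouse was left out, with a log2 fold change of 2.96 (SE 0.25) and an adjusted p = 0.00356 by limma. It was the only pathway gene called in all 6 fits that each left out 1 mouse. Of the oxidases and this exporter, only *Slc40a1* passed the test. *Cp* was higher in all 3 *Hoxa9*/*IRX3* mice but did not pass, and *Heph* was chosen for this pattern and was not tested.

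In the uptake list, 9 of 17 genes were tested, 1 was called higher and none lower, beside 1.1% and 2.03% of all tested genes. *Trf* (ENSMUSG00000032554, chr9:103204001-103230444, minus strand) encodes transferrin, the carrier of iron in plasma. It was at 1.49, 1.78 and 1.88 RPKM in mice 1.1, 1.2 and 1.4 and at 4.64, 9.82 and 7.11 RPKM in mice 3.2, 3.3 and 3.5, with no overlap. The rise of *Trf* was 1.74 in log2 units (SE 0.25, limma adjusted p = 0.0181). The call was lost without mouse 1.1, 1.2 or 1.4, with an adjusted p of up to 0.0951. The predicted gene *Gm20425* overlaps with nearly all of *Trf* on the same strand and moved with it (1.41, adjusted p = 0.0250), so reads of this pair cannot be assigned to either. *Cd163*, the scavenger receptor for hemoglobin with haptoglobin, had 94, 80 and 380 reads in mice 1.1, 1.2 and 1.4 and 1, 9 and 18 reads in mice 3.2, 3.3 and 3.5. The log2 difference of *Cd163* was -1.11 (adjusted p = 0.109 by limma), with mouse 1.4 as the only mouse over 0.5 RPKM, so it was not tested without that mouse. Per exon length it was called (-2.36, adjusted p = 0.0473), where it passed the filter only through *Hoxa9*/MTV mice. *Slc39a8*, the metal importer ZIP8, was at 0.156 to 0.213 RPKM in *Hoxa9*/MTV and 0.380 to 0.758 RPKM in *Hoxa9*/*IRX3* cells, and passed the filter on low values only through *Hoxa9*/*IRX3* mice. It was not called on log2(RPKM + 0.5) (0.70, adjusted p = 0.0759 by limma), but was called higher per exon length (1.44, adjusted p = 0.0367) and by the study's criterion of an unadjusted test and a ratio of means (log2 ratio 1.76).

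None of the 3 tested storage genes was called, beside 3.13% of all tested genes. *Pcbp1*, whose product carries iron to ferritin, had a log2 difference of 0.63 (adjusted p = 0.164 by limma), higher in 3 of 3 mice. Heme turnover had 12 tested genes, with none called higher and 1 lower, beside 1.1% and 2.03% of all tested genes. *Ppox* (ENSMUSG00000062729) and *Cpox* (ENSMUSG00000022742) encode neighbouring enzymes of heme synthesis in mitochondria and went opposite ways. *Ppox* was at 8.49, 8.43 and 7.88 RPKM in mice 1.1, 1.2 and 1.4 and at 4.19, 4.42 and 2.41 RPKM in mice 3.2, 3.3 and 3.5. Its log2 fold change was -1.11 (SE 0.22, limma adjusted p = 0.0378), a call lost without mouse 1.1, 1.2, 1.4 or 3.5 and without a filter on low values (adjusted p = 0.0712). Its end overlaps with *B4galt3* on the other strand, which was also lower in 3 of 3 *Hoxa9*/*IRX3* mice (-0.55, adjusted p = 0.135 by limma). *Cpox*, which makes the substrate of *Ppox*, was at 3.07, 2.46 and 2.65 RPKM in mice 1.1, 1.2 and 1.4 and at 6.84, 4.99 and 5.10 RPKM in mice 3.2, 3.3 and 3.5. Its difference of 0.92 (SE 0.16, adjusted p = 0.0279 by limma) fell short of 2-fold on that scale and reached it per exon length (1.02, adjusted p = 0.0202). *Gpr15* on the other strand shares the last bases of *Cpox* and was also higher in 3 of 3 mice (1.39, adjusted p = 0.174 by limma). The part of shared reads in the *Ppox* and *Cpox* values was not tested.

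Beside the sensors among the members, 4 further iron sensing genes were tested and none was called, against 3.13% of all tested genes. *Hif1a*, the oxygen-sensing subunit that needs iron for its breakdown, was at 1.99 to 2.83 RPKM in *Hoxa9*/MTV and 3.88 to 4.71 RPKM in *Hoxa9*/*IRX3* cells (log2 difference 0.80, SE 0.15, adjusted p = 0.0360 by limma), which is less than 2-fold on that scale. *Fbxl5*, the iron-binding ligase subunit that marks IRP2 for destruction, overlapped between cohorts (0.20, adjusted p = 0.468). Of 29 tested genes for mitochondrial iron and iron-sulfur clusters none was called, against 3.13% of all tested genes, and the median was -0.15. Cohorts did not overlap for 1 gene higher and 9 lower, beside 1161 higher and 2052 lower (33.7% together) of all 9522 tested genes. The mitochondrial iron importers had the largest differences of that list, *Slc25a37* with -0.94 (adjusted p = 0.0744) and *Slc25a28* with -0.74 (adjusted p = 0.113). *Slc25a37* was called with mouse 3.2 left out (-1.21, adjusted p = 0.01002).

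BACH1 represses *Hmox1* and the ferritin genes and NRF2 activates them. Of 10 tested genes of this control, 1 was called higher and none lower, beside 1.1% and 2.03% of all tested genes. *Srxn1*, the sulfiredoxin gene and a textbook NRF2 target, was at 0.791, 0.863 and 1.06 RPKM in mice 1.1, 1.2 and 1.4 and at 3.50, 4.91 and 2.27 RPKM in mice 3.2, 3.3 and 3.5. Its log2 fold change was 1.48 (SE 0.24, limma adjusted p = 0.0258), a call lost without any 1 of the *Hoxa9*/MTV mice, without a filter on low values (adjusted p = 0.0580) and by limma voom on recovered reads (adjusted p = 0.0567). *Gclm*, a glutathione synthesis gene under the same control, was higher in 3 of 3 mice (1.00, adjusted p = 0.160), whereas *Hmox1* and both ferritin genes had differences below 0. Copper for the oxidases was covered by 4 tested genes. *Slc31a2*, a low-affinity copper transporter of endosomes, was at 1.80, 2.28 and 2.97 RPKM in mice 1.1, 1.2 and 1.4 and at 0.491, 1.11 and 0.762 RPKM in mice 3.2, 3.3 and 3.5. Its log2 fold change was -1.15 (SE 0.23, limma adjusted p = 0.0386), a call lost without any mouse other than 3.3, without a filter on low values (adjusted p = 0.0808) and with a pseudocount of 1, where the change was under 2-fold (-0.90). *Cox17*, the copper chaperone of mitochondria, was not called (0.54, adjusted p = 0.151).

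**Figure D4:**
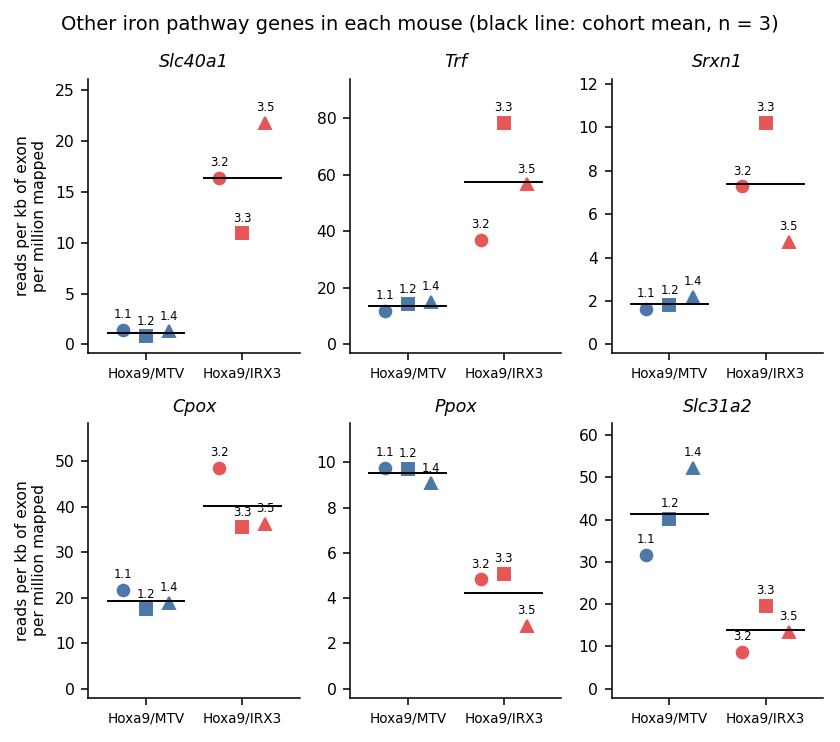
Exon RPKM (linear axis from 0) in each mouse for the 5 pathway genes called on log2(RPKM + 0.5) and for *Cpox*, which was called per exon length, with *Hoxa9*/MTV mice in blue, *Hoxa9*/*IRX3* mice in red and black lines at the cohort means (n = 3). The cohorts are apart in all 6 panels, and *Ppox* and *Slc31a2* are the 2 genes with lower *Hoxa9*/*IRX3* values.

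Markers of other cells that handle iron were read beside these results. The sort was for CD45.1+ KIT+Gr1+ cells, and its purity was not tested here. Of 12 erythroid markers, 6 were listed at 0 in all mice, among them the alpha-globin genes, and all 12 summed to 0.431 to 0.806 exon RPKM in *Hoxa9*/MTV and 0.944 to 1.33 exon RPKM in *Hoxa9*/*IRX3* mice. The 13 markers of iron-recycling macrophages, a list that holds *Slc40a1*, summed to 24.3 to 29.1 versus 47.8 to 138 exon RPKM. *Vcam1*, an adhesion gene in the same list, was at 1.99, 3.21 and 2.98 RPKM in mice 1.1, 1.2 and 1.4 and at 30.6, 15.6 and 49.3 RPKM in mice 3.2, 3.3 and 3.5 (log2 fold change 3.20, adjusted p = 0.0124 by limma), and ranked the *Hoxa9*/*IRX3* mice as *Slc40a1* did. Without *Slc40a1* and *Vcam1* the list summed to 16.5 to 21.2 versus 2.18 to 29.5 exon RPKM, *C1qc*, *Marco* and *Timd4* were at 0 in all mice, and *Cd163* was lower in 3 of 3 *Hoxa9*/*IRX3* mice. *Adgre1*, which encodes F4/80, was at 12.9 to 16.1 exon RPKM in *Hoxa9*/MTV mice and at 15.2, 2.02 and 5.61 exon RPKM in mice 3.2, 3.3 and 3.5. *Adgre1* and *Cd163* together did not reach the highest of these sums, 29.5 exon RPKM in a *Hoxa9*/*IRX3* mouse. Other markers of the list, not named here, were thus read in that mouse, and the named ones do not stand for the list. The part of iron-recycling macrophages in the *Slc40a1* values was not tested beyond these levels. Markers of stroma, endothelium and hepatocytes, cells in which *Cp* or *Heph* are known to be expressed, summed to 35.8 to 42.9 versus 7.16 to 95.1 exon RPKM, with most of it from *Pecam1*, which was at 6.34, 43.2 and 91.0 exon RPKM in mice 3.2, 3.3 and 3.5. In *Hoxa9*/MTV mice *Pecam1* was at 28.3 to 29.4 exon RPKM, and these bulk values do not tell which cells expressed it. *Pecam1* ranked the *Hoxa9*/*IRX3* mice as *Cp* did and in the reverse order of *Heph*. The part of endothelial or other cells in the *Cp* values was not tested. *Pdgfrb*, a gene of stromal cells in the same list, was lower, at 6.87, 9.36 and 12.7 exon RPKM in mice 1.1, 1.2 and 1.4 and at 0.124, 3.45 and 2.54 exon RPKM in mice 3.2, 3.3 and 3.5 (log2 difference -1.25, adjusted p = 0.0546 by limma). *Pdgfrb* passed the filter of 0.5 RPKM only through *Hoxa9*/MTV mice, the cohort where it was higher, so this p-value is no independent support.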

How the data were processed

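Strand-specific polyA libraries of 6 mice were sequenced as paired ends of 75 bases. Per the submitters' processing notes and the study's methods, reads were aligned to GRCm38 with Bowtie2 2.2.1, which does not split reads at introns, filtered with SAMtools 0.1.19 at a Phred quality of 20 and assigned to genes of Ensembl v76. The authors deposited RPKM for each gene and mouse, scaled to mapped reads and to the gene's whole span. Exons, UTRs and gene types came from GENCODE M21 (GRCm38), in which 40254 of 41128 genes had an entry. Reads were recovered from RPKM steps and were whole within 0.01 of a read for 65.0% of tested genes. Those of *Fth1*, *Hmox1*, *Ireb2*, *Irx3*, *Cd163* and other genes are approximate. Depth per library ran from 7979246 to 9803621 mapped reads.

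limma 3.58.1 in R 4.3.3 (lmFit, eBayes with a variance trend) was run on log2(RPKM + 0.5) without covariates, after tests on simulated data. Other steps ran in Python 3.11.15 (pandas 2.3.3, numpy 2.4.6; figures with matplotlib 3.10.9). The members and lists were chosen with earlier results of these data known. The genes named are the members, each called pathway gene, the 2 tested genes of each list with the largest difference, the 5 genes most like *Heph*, and markers. *Slc39a8*, neighbours and overlapping genes were named after their values were seen. Other pseudocounts, filters, lengths, scalings and tests, and leaving out each mouse, were tried as alternatives. No paired fit was made, since mouse numbers are not shared between cohorts. Some genes near *Heph* and some markers are not reported here.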

Additional observations from a re-analysis of the deposited data

How the results depend on the processing

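Across all tested genes, 298 were called, 175 without a filter on low values and 552 per exon length. The study's criterion of an unadjusted test and a ratio of means called 664. That criterion was rerun here on 9522 genes, a set other than the study's own. With 1 mouse left out, 61 to 415 genes were called, lowest without mouse 1.4. Of the 7 tested members none was called under any alternative other than leaving out mouse 3.2, which called 1, *Cp* (the range over mice left out was 0 to 1). *Cp* passed the filter on low values only through *Hoxa9*/*IRX3* mice. Of the pathway genes 5 were called, 2 without a filter, 8 per exon length, and 1 to 6 with 1 mouse left out. Leaving out any *Hoxa9*/MTV mouse left *Slc40a1* as the only call, in a fit with fewer samples. The sign of *Tfrc* turned under median-of-ratios scaling (0.06) and the study's criterion (0.02) and ranged from -0.27 to 0.15 with 1 mouse left out. That of *Ireb2* turned under median-of-ratios scaling (0.06) and limma voom on recovered reads (0.01) and ranged from -0.05 to 0.05 with 1 mouse left out. The cause was not tested. The size for *Heph* followed the pseudocount, at 2.42 with 0.1 and 0.53 with 1, and was 9.86 by voom. *Slc40a1* was called under every alternative. No paired analysis was possible because the cohorts share no mouse numbers. Depth limits *Heph* in *Hoxa9*/MTV cells to a limit of 3 reads per library, and 3 mice per cohort limit the rest.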
